A study of Mus musculus with 6 samples.

Results

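Desmin (Des), the intermediate filament protein that ties muscle sarcomeres to one another, was 3.25-fold lower in cultured mouse thymic tuft cells given recombinant interleukin 13 (rIL-13). The 9 contractile genes described here were chosen by that UMI count difference in Des between rIL-13 and vehicle, with 8 further genes of muscle added around it by name. All 9 names were found among the 9088 genes with counts. The members more typical of striated muscle are Des, Tnni3, Tnnt1 and Myl7, and those more typical of smooth muscle are Acta2, Tagln, Myl9, Tpm1 and Tpm2. The split is loose, because smooth muscle also holds desmin and striated muscle also holds both tropomyosins.

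Tuft cells are chemosensory cells of epithelia, found in the thymus in its medulla, and here they were sorted from young male mice that were wild type (WT). After sorting they were spun into aggregates and kept ex vivo for 12 h and, in new medium, for another 24 h. One group of 3 libraries then had 20 ng/mL rIL-13 for 24 h, and the other group of 3 libraries had the PBS vehicle for the same time. Polyadenylated RNA was counted in bulk by MARS-seq, which tags the 3' end of each transcript with a unique molecular identifier (UMI), so that a count does not scale with transcript length. The labels do not say whether replicates are separate animals or cultures, so p-values reflect how far these libraries vary, and that variation may be technical. In bulk RNA, fewer cells of a type and less RNA per cell cannot be told apart.

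In striated muscle, myosin motors pull on actin filaments whose access is gated by tropomyosin and the calcium-sensing troponin complex, and desmin links the resulting sarcomeres side by side and to the cell membrane. Smooth muscle has no troponin, and its myosin is switched on by phosphorylation of its regulatory light chain. Many contractile genes of both kinds are activated by serum response factor (SRF), which binds DNA at a motif called the CArG box. The thymic medulla also holds epithelial cells that imitate muscle, besides fibroblasts and the mural cells of vessels, and tuft cells themselves are not known for a contractile programme.

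Libraries held 248028 to 295614 UMIs with rIL-13 and 394513 to 489919 with vehicle over the listed genes, so counts of the same gene are lower with rIL-13 before scaling. Levels are therefore given as CPM, the UMI count relative to the library total after scaling by the TMM factors of edgeR. Of 18 tuft cell markers 17 were listed, and their summed level was 4731, 7874 and 8617 CPM in rIL-13 replicates 1, 2 and 3, against 4471, 5314 and 4801 CPM in the vehicle libraries. Of the 12 tested, 1 had a log2 fold change below 0, against 50% of all 5135 tested genes, and none passed in edgeR, while 8 had an unadjusted p under 0.05, against 5.49% of those genes. The part of this in the levels of the muscle genes was not tested. None of 10 thymocyte markers was among the genes analysed. Markers of muscle, mesothelial, mural and fibroblast cells were present as well, and their levels stand beside the genes they move with.

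The promoter stretches below are those of the members whose 250 bases before the RefSeq start hold a CArG box, the motif shared by contractile genes of both muscle kinds. They come from RefSeq on GRCm38.p6, read 5' to 3' on the strand of the gene, with the motif in capitals. The search took CC, then 6 bases of which at most 1 is G or C, then GG, a form that reads as itself on the other strand. The Myl9 stretch is chr2:156775273-156775404 on the plus strand, the Myl7 stretch is chr11:5898804-5898873 on the minus strand, and the Acta2 stretches are chr19:34255438-34255467 and chr19:34255388-34255417 on the minus strand. Both Acta2 stretches lie before the RefSeq start but within the Acta2 gene of GENCODE M21, which begins the gene farther upstream. An annotated exon of Acta2 there overlaps the window around both stretches.
Myl9: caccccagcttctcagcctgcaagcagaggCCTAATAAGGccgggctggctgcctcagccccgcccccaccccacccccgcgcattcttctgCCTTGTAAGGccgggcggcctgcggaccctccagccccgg
Myl7: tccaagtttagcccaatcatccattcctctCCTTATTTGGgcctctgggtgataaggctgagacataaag
Acta2, farther from the start: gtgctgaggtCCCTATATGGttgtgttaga
Acta2, nearer to the start: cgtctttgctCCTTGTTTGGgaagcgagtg

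Of the 8 members with an entry in the promoter table, 3 held the motif in this form, against 8.59% of 32851 promoters of the same length. A centre of A and T alone was found in Myl9 and Myl7, against 1.47% of all promoters. The binding motif of MEF2, another family of muscle activators, was searched on both strands and was in none of the 8 windows, against 2.92% of all promoters. The letters CATTCC, searched on both strands, were in the windows of Tpm1, Myl7 and Acta2, against 12.6% of all promoters. CANNTG, where N is any base, was in 7 of the 8 windows, that of Des among them, against 66.2% of all promoters. TATAAA was in the window of Tnnt1 alone, against 12.4%. Tagln had no entry in the table. A match describes the letters of these windows and does not show that a factor binds there.

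Des was present in every library and separated the groups. It had 22, 20 and 16 UMIs in rIL-13 replicates 1, 2 and 3, against 72, 89 and 142 in vehicle replicates 1, 2 and 3. On the CPM scale the rIL-13 libraries averaged 73.4 ± 6.76 and the vehicle libraries 239 ± 60.0 (SD, n = 3 each). Each rIL-13 library lay below every vehicle library, and vehicle replicate 3 was the highest. The fitted log2 fold change was -1.70 ± 0.28 (SE), a level 3.25-fold lower with rIL-13. Since this difference chose the set, it is a description and carries no test. The gene spans chr1:75360329-75368579 on the plus strand in mm10 and is annotated as protein-coding.

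The rIL-13 libraries were close to each other in Des, with a highest CPM 1.20 times the lowest, and the vehicle libraries spread 1.53-fold. Leaving out each library in turn gave log2 fold changes between -1.81 and -1.47, the smallest in size without vehicle replicate 3. These values use the difference that chose the set and are a description too.

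**Figure D1:**
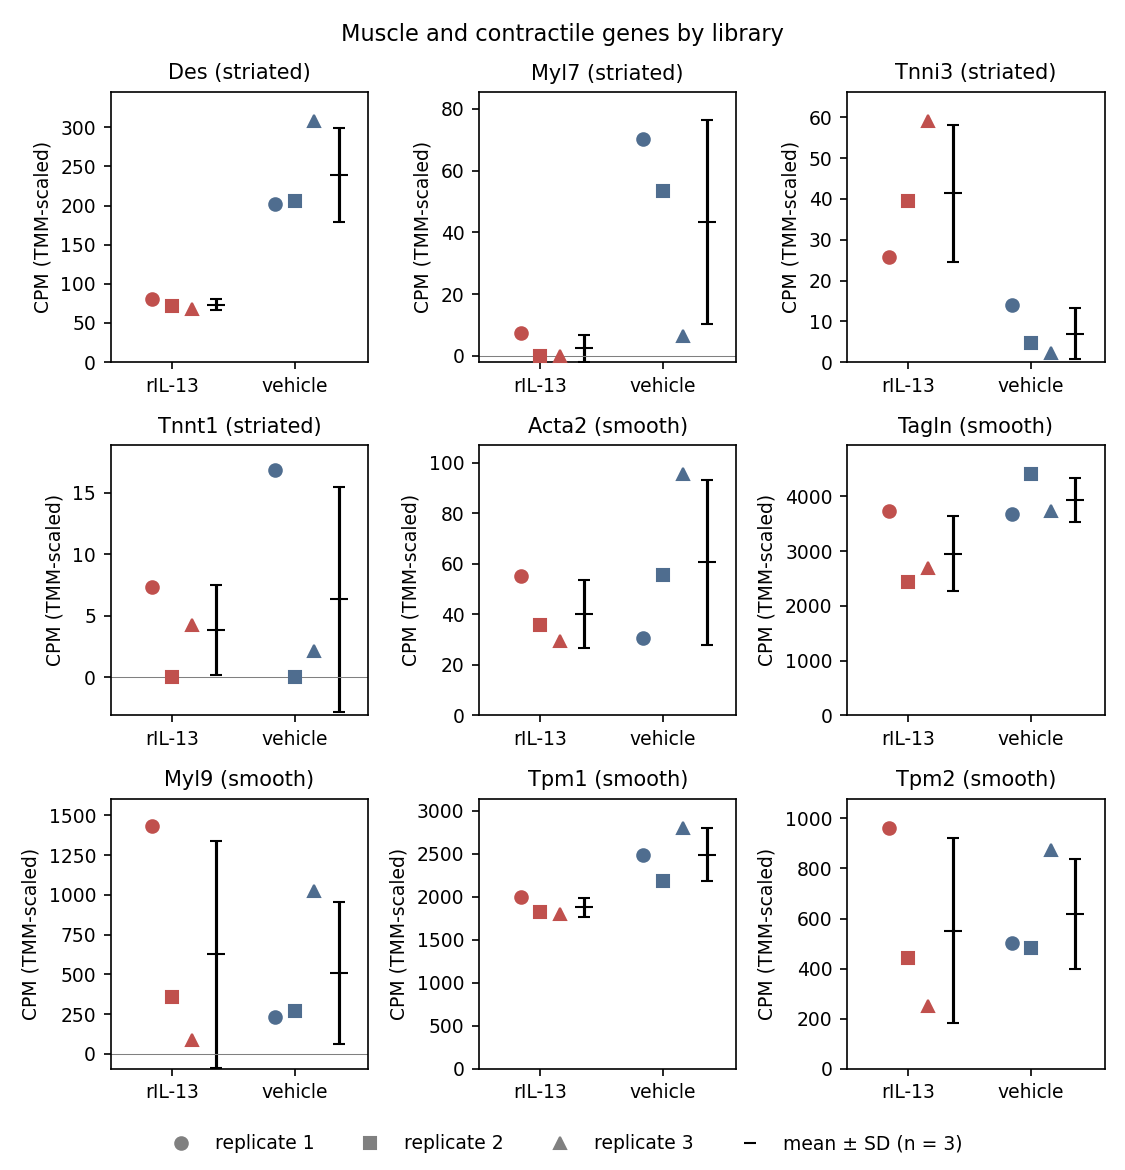
Level of each of the 9 genes in every library, as TMM-scaled CPM, with symbols for replicates and bars for mean ± SD. The groups do not overlap for Des and Tpm1, lower with rIL-13, and for Tnni3, higher with rIL-13, while Myl9 and Tpm2 are high in rIL-13 replicate 1 and vehicle replicate 3.

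Vehicle replicate 3, the library with the most Des, also had by far the most skeletal muscle transcripts. Of 14 markers of skeletal muscle-like thymic cells, 7 were listed, and their summed level was 165, 880 and 46.5 CPM in rIL-13 replicates 1, 2 and 3, against 143, 615 and 3128 CPM in vehicle replicates 1, 2 and 3. The fast troponin T gene Tnnt3, named with its values known, was at 0 in all 3 rIL-13 libraries and in vehicle replicates 1 and 2, and had 26 UMIs in vehicle replicate 3. Ckm, Acta1, Tnnc2 and Mylpf were also highest in vehicle replicate 3, but Myog and Neb were highest in rIL-13 replicate 2. Myog had 2, 8 and 4 UMIs with rIL-13 and 1, 4 and 3 with vehicle, and Neb 0, 7 and 1 against 0, 1 and 2. The part of these cells in the level of Des was not tested.

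**Figure D2:**
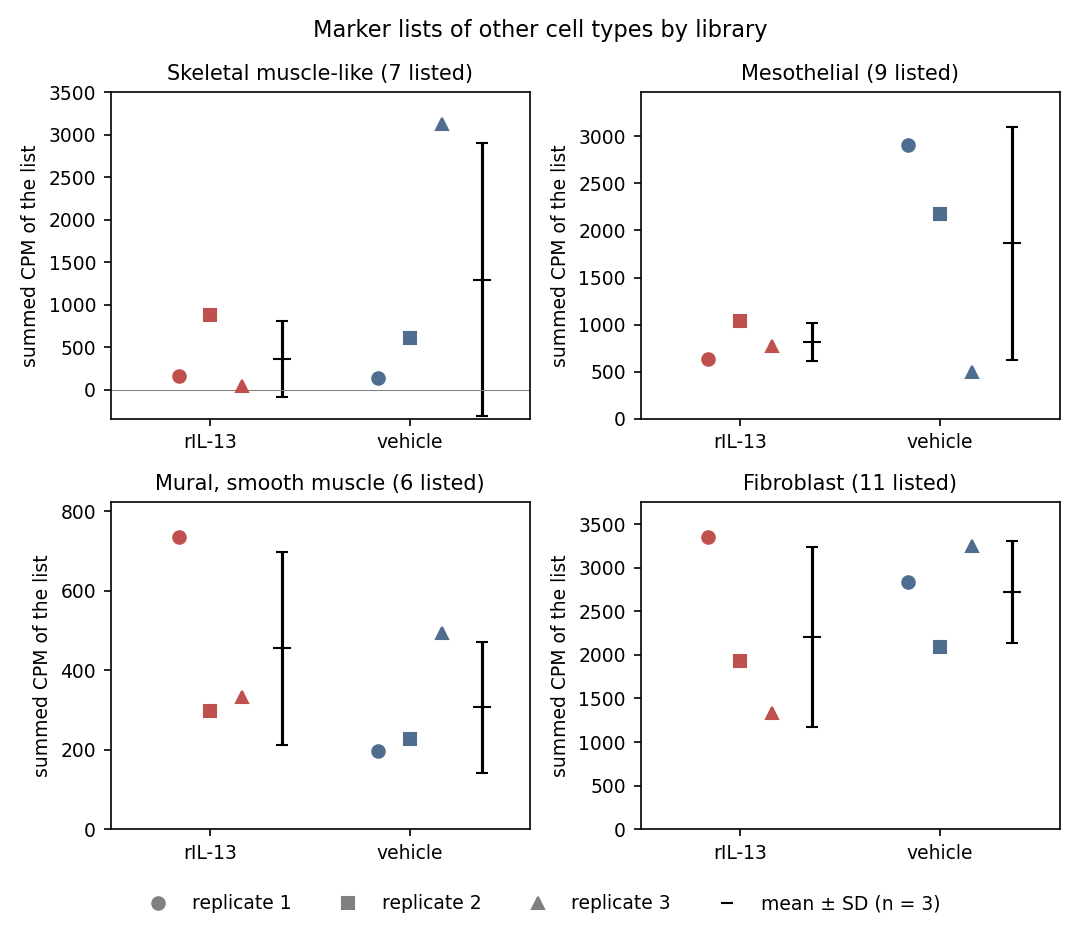
Summed CPM of the listed markers of 4 other cell types in every library, with symbols for replicates and bars for mean ± SD. Skeletal muscle-like markers peak in vehicle replicate 3 at 3128 CPM, mesothelial markers are highest in vehicle replicates 1 and 2, and mural markers are highest in rIL-13 replicate 1.

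Among the other 8 members none passed in edgeR at a Benjamini-Hochberg adjusted p under 0.05 over all genes, where 0.0584% of 5135 genes passed with the count filter (0.0389% higher and 0.0195% lower with rIL-13) and 0.077% of 9088 without it. None passed with DESeq2, where 0.0661% of genes passed, and with limma voom, in which no gene at all passed, none of the 5 tested did. At an unadjusted p under 0.05 edgeR gave 4 of the 8, Tnni3, Myl7, Tagln and Tpm1, against 5.49% of all genes with the filter and 5.38% without it. Because the contrast is the one that chose Des, nothing is read from these shares. The filter kept 6 members, Des among them, while Tnni3, Tnnt1 and Myl7 had too few UMIs and are given from the fit of all listed genes.

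Myl7 encodes the regulatory myosin light chain of the heart atria. It had 2, 0 and 0 UMIs in the rIL-13 libraries, against 25, 23 and 3 in vehicle replicates 1, 2 and 3. The level was thus high in vehicle replicates 1 and 2 alone, and the groups overlap, since rIL-13 replicate 1 had 7.35 CPM and vehicle replicate 3 had 6.51 CPM. The pooled ratio of rIL-13 to vehicle was 0.0621, with an exact 95% Poisson interval of 0.00733 to 0.236 that covers counting error only. The fitted log2 fold change of -3.89 ± 1.06 did not pass (edgeR adjusted p = 0.438). Without vehicle replicate 3 it was -4.40 and passed (edgeR adjusted p = 0.0207), and over all alternatives the adjusted p ran between 0.00327 and 0.9999.

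The same pair of vehicle libraries was high in mesothelial markers, the genes of the lining cells of body cavities. Of 10 such markers 9 were listed, at a summed 639, 1038 and 777 CPM in rIL-13 replicates 1, 2 and 3, against 2911, 2174 and 499 CPM in vehicle replicates 1, 2 and 3. Cldn15 was at 0 in rIL-13 replicate 2 and Rspo1 in rIL-13 replicate 3. None of the 9 was at 0 in a vehicle library, where library totals were larger. Cldn15 did not follow the pair, with 5, 11 and 10 UMIs in vehicle replicates 1, 2 and 3. The part of mesothelial cells in the level of Myl7 was not tested.

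Tnni3 encodes cardiac troponin I, the subunit that blocks actin from myosin when calcium is low. It had 7, 11 and 14 UMIs in rIL-13 replicates 1, 2 and 3, against 5, 2 and 1 in vehicle replicates 1, 2 and 3. The scaled level was 41.4 ± 16.8 CPM in rIL-13 libraries and 6.95 ± 6.26 CPM in vehicle libraries (SD, n = 3 each), and each rIL-13 library lay above each vehicle library, the opposite side from Des. The fitted difference, a log2 fold change of 2.57 ± 0.65, missed the threshold (edgeR adjusted p = 0.227), and its adjusted p ran between 0.0582 and 0.996 over the alternatives. Of 11 cardiac muscle markers 2 were listed, at a summed 51.4 to 79.0 CPM in rIL-13 libraries and 58.9 to 118 CPM in vehicle libraries, which overlap.

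The count of Tnni3 is uncertain in its source, because Dnaaf3, an assembly factor of ciliary dynein arms, lies just upstream on the same strand and overlaps it. Dnaaf3 had 29, 47 and 31 UMIs in rIL-13 replicates 1, 2 and 3, against 3, 3 and 4 in the vehicle libraries. It rose with rIL-13, by 4.02 ± 0.41 on the log2 scale (edgeR adjusted p = 6.53e-05, DESeq2 adjusted p = 4.28e-07), while limma voom gave an adjusted p of 0.128. In GENCODE M21 on mm10, Tnni3 spans chr7:4518305-4524229 and Dnaaf3 chr7:4522933-4532453, both on the minus strand. The exons share 86 bases, at chr7:4524144-4524229, through 1 of 8 annotated Tnni3 transcripts. The 3' ends, near which MARS-seq reads lie, are 4628 bases apart. How reads were assigned in this region is not given in the sources used here, and the part of Dnaaf3 in the Tnni3 count was not tested.

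Tnnt1, the slow skeletal troponin T that anchors troponin to tropomyosin, was close to absent. It had 2, 0 and 1 UMIs in the rIL-13 libraries, against 6, 0 and 1 in vehicle replicates 1, 2 and 3, so the groups overlap and vehicle replicate 1 holds most of the counts. The pooled ratio of rIL-13 to vehicle was 0.679, with an exact 95% Poisson interval of 0.113 to 2.98, and a difference was not detectable at this depth (edgeR adjusted p = 0.992).

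Among the smooth-muscle members, Tagln was the most abundant in UMIs. It encodes transgelin, an actin-binding protein also called SM22. It had 1016, 680 and 638 UMIs in rIL-13 replicates 1, 2 and 3, against 1308, 1898 and 1723 in the vehicle libraries. Scaled, the rIL-13 libraries had 2956 ± 684 CPM and the vehicle libraries 3938 ± 405 CPM (SD, n = 3 each). The groups overlap because rIL-13 replicate 1, at 3732 CPM, lies above vehicle replicate 1, at 3671 CPM. At -0.41 ± 0.18 the log2 fold change missed the threshold (edgeR adjusted p = 0.860).

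Tpm1 encodes the alpha tropomyosin, which lies along actin filaments in muscle and in other cells. It had 544, 508 and 427 UMIs in rIL-13 replicates 1, 2 and 3, against 885, 941 and 1291 in the vehicle libraries. The rIL-13 libraries averaged 1875 ± 107 CPM and the vehicle libraries 2490 ± 309 CPM (SD, n = 3 each). All rIL-13 libraries lay below all vehicle libraries, by a narrow margin between rIL-13 replicate 1 at 1998 CPM and vehicle replicate 2 at 2184 CPM. At -0.41 ± 0.17 it missed the threshold on the log2 scale (edgeR adjusted p = 0.832). Of the members other than Des, groups were apart for Tpm1 and Tnni3, against 11.1% of all listed genes. Tpm1 was apart on the lower side, where 5.94% of the tested genes were. Des was apart on that side too, but this comes from how it was chosen and is not counted against these shares.

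Acta2 encodes smooth muscle alpha actin, the classical marker of smooth muscle and of contractile fibroblasts. It was low in every library, with 15, 10 and 7 UMIs in rIL-13 replicates 1, 2 and 3, against 11, 24 and 44 in vehicle replicates 1, 2 and 3. The groups overlap, with 29.6 to 55.1 CPM in the rIL-13 libraries and 30.9 to 95.5 CPM in the vehicle libraries. The log2 fold change was -0.60 ± 0.44 (edgeR adjusted p = 0.911).

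Myl9 encodes the regulatory light chain of smooth muscle and non-muscle myosin, the subunit whose phosphorylation starts contraction. Its UMIs were 390, 99 and 21 in rIL-13 replicates 1, 2 and 3, against 82, 116 and 473 in vehicle replicates 1, 2 and 3. Within the rIL-13 group the highest CPM was 16.2 times the lowest, and within the vehicle group 4.46 times. A single library in each group, rIL-13 replicate 1 and vehicle replicate 3, stood above the rest, so the difference between groups is smaller than the spread inside them. The log2 fold change was 0.30 ± 1.22 (edgeR adjusted p = 0.993), and it was -1.21 without rIL-13 replicate 1 and 1.34 without vehicle replicate 3.

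Tpm2, the beta tropomyosin, was high in the same libraries. Its UMIs were 262, 123 and 59 in rIL-13 replicates 1, 2 and 3, against 179, 208 and 402 in vehicle replicates 1, 2 and 3. Scaled, rIL-13 replicate 1 had 962 CPM and vehicle replicate 3 had 873 CPM, and the other libraries had 249 to 502 CPM. The log2 fold change was -0.17 ± 0.51 (edgeR adjusted p = 0.986), and it turned to 0.17 without vehicle replicate 3 and to 0.18 without rIL-13 replicate 3.

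The summed mural cell and fibroblast markers were highest in the same library of each group as Myl9 and Tpm2, but many single markers were not. Of 12 mural and vascular smooth muscle markers 6 were listed, with a summed level of 735, 298 and 334 CPM in rIL-13 replicates 1, 2 and 3, against 196, 227 and 495 CPM in vehicle replicates 1, 2 and 3. Of these 6, Cnn1 and Pdgfrb were highest in rIL-13 replicate 1 and in vehicle replicate 3 within their groups, and the other 4 were not, such as Mcam with 2, 4 and 20 UMIs in the rIL-13 libraries and 1, 2 and 0 in the vehicle libraries. The calponin gene Cnn1 contributed 43, 11 and 14 UMIs in the rIL-13 libraries, against 3, 0 and 79 in the vehicle libraries. The smooth muscle myosin heavy chain gene Myh11, a defining marker of mature smooth muscle, had 1 to 2 UMIs in the rIL-13 libraries and 2 to 6 in the vehicle libraries. Of 14 fibroblast markers 11 were listed, with no listed marker at 0 in any library, and summed to 3350, 1932 and 1330.5 CPM with rIL-13 and to 2835, 2093 and 3247 CPM with vehicle, in replicates 1, 2 and 3. Of the 11, 6 were highest in rIL-13 replicate 1 and in vehicle replicate 3 within their groups. The part of these cells in the levels of Myl9 and Tpm2 was not tested.

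**Figure D3:**
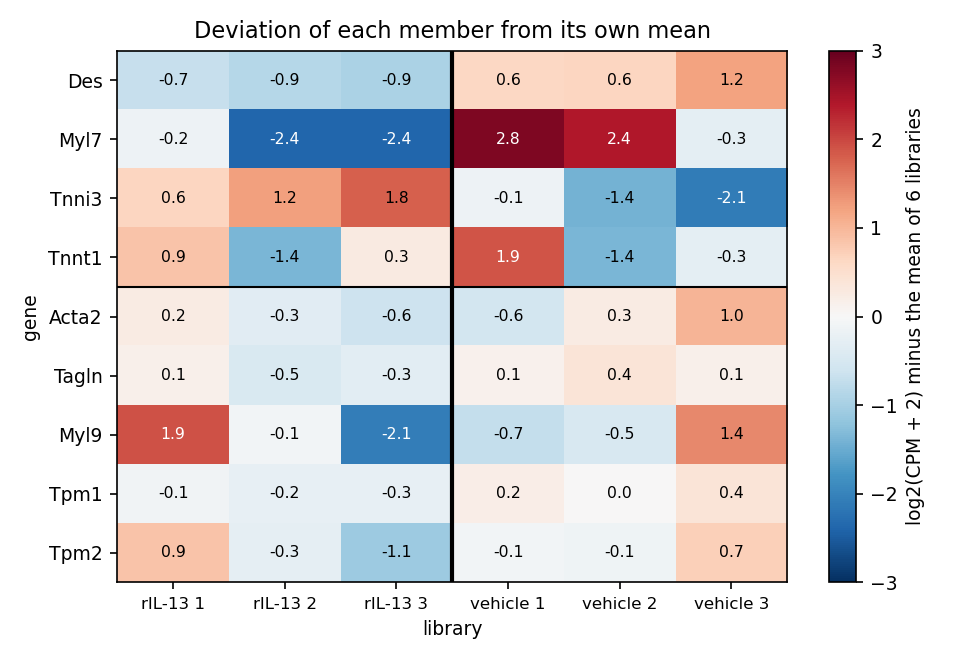
Each gene's log2(CPM + 2) in a library minus its own mean over the 6 libraries, rIL-13 libraries left of the black line and vehicle libraries right of it. Des is lowest in rIL-13 replicate 3, at -0.94, and highest in vehicle replicate 3, at 1.22, Tnni3 runs the other way, and Myl9 and Tpm2 are both highest in rIL-13 replicate 1 and lowest in rIL-13 replicate 3.

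Des was picked for its difference between groups, which is read against the variation inside them, so its variation is given as a description. The biological coefficient of variation that edgeR estimated after moderation was 96.5% for Myl9, which exceeded that of nearly all tested genes (percentile 99.8), and 43.8% for Tpm2 (percentile 97.5). Acta2 was at 30.4% (percentile 89.1). Tagln at 23.5%, Tpm1 at 22.3% and Des at 22.3% lay at or below the middle of all tested genes, whose median was 23.7%. The smooth-muscle members thus differed among themselves, with Tagln and Tpm1 even across libraries and Myl9 and Tpm2 uneven.

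The closest pair of members in their course over the 6 libraries was Tagln and Tpm1, with a root mean square difference of 0.23 in centred log2(CPM + 2). Myl9 was nearest to Tpm2, at 0.73, and Des was nearest to Tpm1, at 0.64. The farthest pair was Myl7 and Tnni3, both striated members, at 3.10. Myl7 had 0 to 25 UMIs per library and Tnni3 had 1 to 14, against 638 to 1898 for Tagln and 427 to 1291 for Tpm1. Counting error adds to the distance between genes of few UMIs, and its part was not tested. Des and Tnni3 were 2.21 apart. The distances hold the difference between groups that chose Des, so those from Des are a description and not a separate result.

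Striated and smooth-muscle members therefore differ more within the classes than a single summary shows. In the fit of all listed genes the 4 striated members had a median log2 fold change of -1.15, and -0.60 without Des, with a range of -3.89 to 2.57. Both ends of that range, Myl7 (SE 1.06) and Tnni3 (SE 0.65), had too few UMIs for the count filter, as had Tnnt1 (SE 1.63). All smooth-muscle members passed the filter. The 5 smooth-muscle members had a median of -0.42 with a range of -0.61 to 0.31, and -0.42 also without the tropomyosins. Leaving out Des, whose fall chose the set, the value was below 0 for 2 of 3 striated members. It was below 0 for 4 of the 5 smooth-muscle members, against 51.6% of all listed genes, whose median was -0.02. The difference between the classes was not tested, since members are not replicates. The striated median was -0.16 without vehicle replicate 1, and the smooth-muscle median was -0.87 without rIL-13 replicate 1 and -0.11 without vehicle replicate 3.

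**Figure D4:**
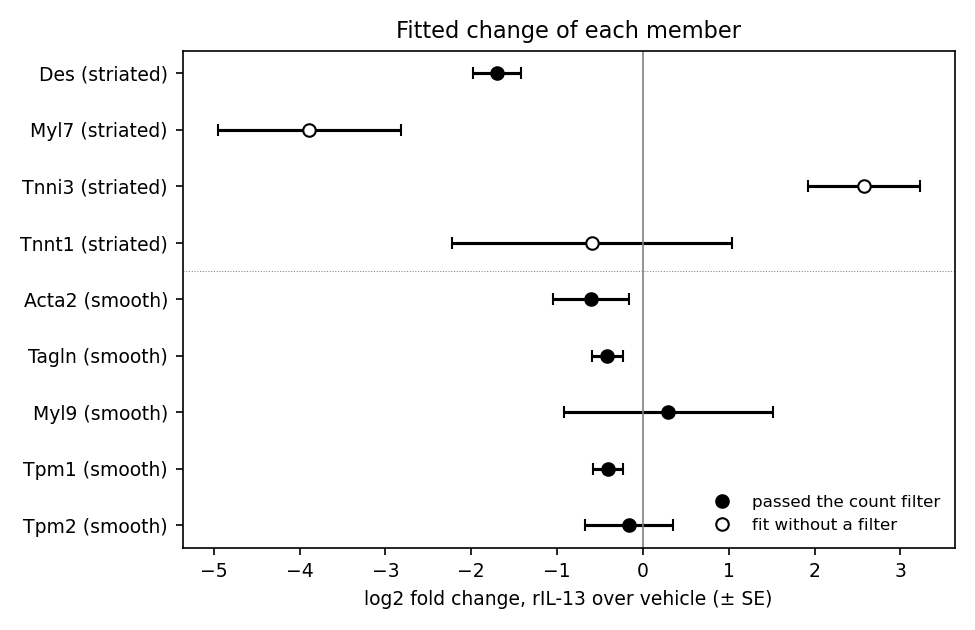
Fitted log2 fold change of rIL-13 over vehicle for each gene, with its standard error, striated members above the dotted line and smooth-muscle members below it. Striated members run from -3.89 for Myl7 to 2.57 for Tnni3, and smooth-muscle members lie between -0.60 and 0.30.

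The smooth-muscle members made up far more of the RNA than the striated ones, mostly through Tagln and Tpm1. Acta2, the classical smooth muscle marker, had 7 to 44 UMIs per library. The smooth-muscle members held 0.753, 0.494 and 0.464% of UMIs in rIL-13 replicates 1, 2 and 3, against 0.625, 0.696 and 0.803% in vehicle replicates 1, 2 and 3, so the groups overlap. The striated members held 0.0112, 0.0108 and 0.0125% in the rIL-13 libraries, against 0.0274, 0.0249 and 0.0300% in the vehicle libraries. Most of the UMIs of the striated sum are those of Des, so its separation is the one already described.

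Other genes of the contractile apparatus were taken from lists of related genes. Of 39 further sarcomere and troponin genes, 20 were listed, 3 were tested and none passed (edgeR), 3 of 3 having a log2 fold change below 0. Myl1, a light chain of fast skeletal myosin, had 10, 23 and 0 UMIs with rIL-13 and 0, 8 and 471 with vehicle (-3.08 ± 2.35, edgeR adjusted p = 0.926). Nearly all of its UMIs were in vehicle replicate 3. Tnnt2, the cardiac troponin T, had 11, 20 and 16 UMIs with rIL-13 and 19, 44 and 37 with vehicle (-0.40 ± 0.36, edgeR adjusted p = 0.926). The remaining tested gene is Acta1, the skeletal muscle alpha actin, which was named with its values known and had 35, 192 and 2 UMIs with rIL-13 and 42, 246 and 872 with vehicle, overlapping between groups (-1.63 ± 1.61, edgeR adjusted p = 0.932).

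Of 23 genes of the desmin network and Z-disc, the sarcomere border where desmin attaches, 18 were listed, 14 tested and none passed, with 10 log2 fold changes below 0 and a median of -0.29, against -0.000255 over all 5135 tested genes. Ankrd1, an ankyrin repeat protein of the sarcomere that is also a target of the coactivator YAP, had 54, 47 and 47 UMIs with rIL-13 and 229, 324 and 137 with vehicle, with no overlap in CPM. At -1.58 ± 0.30 on the log2 scale it missed the threshold with edgeR (adjusted p = 0.0848) and passed with DESeq2 (adjusted p = 0.00955). Cryab, the small heat shock protein that chaperones desmin, had 425, 531 and 634 UMIs with rIL-13 and 1287, 1203 and 970 with vehicle (-0.47 ± 0.23, edgeR adjusted p = 0.860). Vim encodes vimentin, the intermediate filament of mesenchymal cells, and was named with its values known. It averaged 3440 ± 1563 CPM in rIL-13 libraries and 4907 ± 699 CPM in vehicle libraries (SD, n = 3 each), which is -0.51 ± 0.28 on the log2 scale (edgeR adjusted p = 0.860). Vim overlapped between groups where Des did not.

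Of 22 further smooth muscle genes, 17 were listed, 10 tested and none passed, with 6 log2 fold changes below 0 and a median of -0.07. Cald1, the actin-binding caldesmon, had 62, 38 and 34 UMIs with rIL-13 and 92, 117 and 106 with vehicle (-0.58 ± 0.26, edgeR adjusted p = 0.860). Pdlim1, a protein of actin stress fibres, had 146, 65 and 68 UMIs with rIL-13 and 185, 226 and 258 with vehicle (-0.60 ± 0.27, edgeR adjusted p = 0.860). Cald1 did not overlap between the groups in CPM and Pdlim1 did.

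Of 22 genes of non-muscle actomyosin, which builds the contractile cortex of most cells, 21 were listed, 20 tested and none passed, with 14 below 0 and a median of -0.13. Tpm4, a tropomyosin of non-muscle cells, had 108, 101 and 55 UMIs with rIL-13 and 227, 198 and 289 with vehicle, with no overlap in CPM (-0.79 ± 0.24, edgeR adjusted p = 0.506). Myl12a, a regulatory light chain of non-muscle myosin, was at -0.49 ± 0.21 (edgeR adjusted p = 0.860). Of 29 SRF-related and myogenic regulators, 15 were listed, 7 tested and none passed, with 5 below 0 and a median of -0.18. The smallest p-values there belonged to Elk3, an ETS partner of SRF, at 0.87 ± 0.48, and Tead1, a factor that works with YAP, at -0.43 ± 0.29 (edgeR adjusted p = 0.860 and 0.898). Over these 5 lists, unadjusted p-values under 0.05 were found for 0, 1, 2, 3 and 0 tested genes in the order given, out of 3, 14, 10, 20 and 7 tested, against 5.49% of all tested genes.

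The tested genes with a course over the 6 libraries nearest to that of Des, apart from members, were Lrrk1, Eno3, Pdk3, Tsen15 and Rras2, at root mean square differences of 0.28, 0.36, 0.37, 0.38 and 0.42 in centred log2(CPM + 2). Eno3 encodes the muscle form of enolase. None of the 5 passed in edgeR, with log2 fold changes from -1.37 for Eno3 to -0.99 for Tsen15 that were all smaller in size than that of Des. Because the search took genes near Des, whose fall chose the set, their lower side is not a separate result. Nearest to Tagln, the smooth-muscle member with the highest CPM, were Grn, Itgb1bp1, Gtf2f2, Prcp and S100a6, at 0.024, 0.070, 0.090, 0.095 and 0.095.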

How the data were processed

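Bulk MARS-seq libraries of 3 rIL-13 and 3 vehicle samples were grouped by their titles. Per the submitters' processing notes, bcl2fastq, cutadapt, STAR 2.5.2b, HTSeq and DESeq2 were used with build mm10, without roles or order. The deposited table gives, per the file headers, raw UMI counts, counts divided by size factors (a normalized signal), regularized log2 values, and a comparison by the authors with log2 changes and p-values. The deposited counts alone were used for the values here. Library totals cover the listed genes, each of which has at least 6 UMIs in some library, and are not the whole depth. Counting error is large for genes of few UMIs.

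Genes were tested over the whole table with edgeR 4.0.16 in R 4.3.3 (quasi-likelihood F test, robust, TMM, group as the single term, two-sided, Benjamini-Hochberg over all tested genes), after its default count filter, which kept 5135 genes. Standard errors come from the F statistic. CPM are per TMM-scaled total of the filtered genes. DESeq2 1.42.0, limma 3.58.1 voom, other scalings and filters, a replicate term and leaving out libraries were alternatives. The edgeR, DESeq2 and voom fits were run on data simulated from the edgeR fit of the filtered genes. That run checked the direction and share of true changes called, set no limit on false calls and left out members below the filter. Members and lists were chosen with earlier results of these data known. Named genes were the members, the 2 tested genes of each related list with the smallest p, the 5 nearest to Des and to Tagln, and Dnaaf3. Acta1, Vim and the single markers named (Tnnt3, Ckm, Tnnc2, Mylpf, Myog, Neb, Cnn1, Pdgfrb, Mcam, Myh11, Cldn15 and Rspo1) fall outside this rule and were named after their values were seen. Coordinates are from GENCODE M21.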

Additional observations from a re-analysis of the deposited data

How the results depend on the processing

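Of 126 values of single members under an alternative, 114 kept their direction and, for members other than Des, their side of the threshold. For Des, which carries no test, a value counted as kept if it moved by less than the spread of its replicates. The direction turned for Tnnt1 with limma voom (0.28), for Myl9 with limma voom (-0.14), and for Myl9 (-0.16) without vehicle replicate 3 and rIL-13 replicate 1 together, a setting chosen after seeing the data. Leaving out single libraries gave -1.47 to 1.50 for Tnnt1, -1.21 to 1.34 for Myl9 and -0.86 to 0.18 for Tpm2. Myl7 passed in 3 alternatives: without vehicle replicate 3, without both libraries, and with the replicate number as a block (edgeR adjusted p = 0.0207, 0.00936 and 0.00327). These are the settings in which 1 member other than Des passed, against 0 as reported. Deviations from the group means in the pairs numbered 1, 2 and 3 had correlations of -0.07, 0.08 and -0.22. Of 3 rIL-13 libraries, 1 correlated best with its own number. With so few pairs these values cannot show whether libraries of the same number are paired, and the labels do not say.

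Genes called over the whole table were 2 higher and 1 lower. The counts were 4 and 2 with DESeq2, 0 and 0 with limma voom, 5 and 2 without a filter, 8 and 5 with the replicate block, and 21 and 10 without both libraries named above. Leaving out single libraries gave 1 to 20 higher, 0 to 15 lower and 0 to 1 members. The median log2 fold change ran from -1.64 to -0.16 for striated members and from -0.87 to -0.11 for smooth-muscle members when single libraries were left out. For all of these the cause was not tested. At 0 to 3 UMIs in some libraries, Myl7, Tnni3 and Tnnt1 are limited by depth.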
